A study of Arabidopsis thaliana with 16 samples.

Results

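Leaves of a pair of Arabidopsis thaliana lines that each carry a T-DNA insertion in the gene HYPK were compared with each other, over all 27826 probe sets of the array. The 8 arrays, of 16 in the series, were chosen by the exon their titles name: 4 are labelled as the line with the insertion in the first exon, called here the exon 1 line, and 4 as the line with the insertion in the second exon, the exon 2 line. The other 8 arrays, 4 of the NAA10 knockdown line amiNAA10, in which an artificial microRNA is directed against NAA10, and 4 of the wild type (WT), are used for the shared estimate of the spread and as a reference for levels. All plants were 6 weeks old, were kept on soil in short days (8.5 h) with a day temperature of 22 °C and a night temperature of 18 °C, and were left untreated.

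The labels call both HYPK lines knockouts. The design text names the alleles hypk-1 and hypk-3, but the sample labels do not say which allele carries which insertion, so the lines are called here by their exon. Each line stands for 1 insertion event, no line with the gene restored was among the arrays, and the position of the HYPK probes relative to either insertion is not given in the sources used here. "Exon 1 line" and "exon 2 line" therefore mean the arrays so labelled. Whether the 4 samples of a line came from separate plants, from pools or from repeat preparations is not given, so p-values cover only the scatter among these samples, part of which may be technical. No growth tray, harvest or hybridisation batch is given.

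As background, HYPK binds the ribosome-associated N-terminal acetyltransferase NatA, in which NAA10 is the catalytic subunit and NAA15 the subunit that anchors the complex to the ribosome. NatA acetylates the first residue of many proteins while they are being made. In plants NatA and HYPK have been tied to protein stability, to growth and to responses to drought and pathogens. Separate insertion lines of a gene are commonly studied side by side, so that what they share can be told from what is particular to a single line.

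Values are log2 expression after robust multi-array averaging (RMA), and a difference of 1 is 2-fold. Differences are the exon 1 line minus the exon 2 line. A probe set was called when its two-sided limma p, adjusted by Benjamini-Hochberg over all probe sets, was under 0.05. Only 2 of the 27826 probe sets were called, both lower in the exon 1 line: AT3G06600, the locus next to HYPK, and AT4G10695, on another chromosome. The called share was 0.00719% in either direction, the same 0.00719% for lower, and 0.0% for higher. At an unadjusted limma p under 0.05, 544 probe sets (1.96%) were higher and 676 (2.43%) were lower in the exon 1 line, 4.38% together. HYPK itself and the locus AIF2, which lies on the far side of AT3G06600, were also at lower levels in all 4 exon 1 arrays than in all 4 exon 2 arrays, without passing the threshold.

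The leaf label was checked in the 8 arrays of both lines. The mean of 43 photosynthesis genes lay between 9.26 and 9.58 in each of them, far above the table's median of 3.17, and the means of 6 root markers (1.40 to 1.76) and of 10 flowering and flower markers (1.76 to 2.04) lay near 1.83, under which the dimmest 30% of probe sets fall. Exon 2 replicate 4 stood apart from the other arrays of its line. Across probe sets it correlated with the other exon 2 arrays at 0.974 to 0.982, and those correlated among themselves at 0.985 to 0.987, whereas its correlation with the exon 1 arrays was 0.981 to 0.989. In 691 probe sets it was 2-fold or more above the mean of the other 3 exon 2 arrays and in 235 as far below, against 84 to 190 above and 77 to 307 below for the others of that line taken in turn. The main counts over all probe sets, the list medians stated below and some of the named genes are given with and without it. No pair of arrays held identical values.

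HYPK (AT3G06610) was measured at 4.53, 4.87, 4.69 and 4.79 in exon 1 replicates 1 to 4, against 5.52, 5.66, 5.38 and 5.04 in exon 2 replicates 1 to 4. All exon 1 arrays lay below all exon 2 arrays, and the lowest exon 2 array was replicate 4. The amiNAA10 arrays ran from 5.21 to 5.48 and the WT arrays from 5.55 to 5.75, so the exon 1 arrays were also below every array of those genotypes. The exon 1 line averaged 4.72 ± 0.14 and the exon 2 line 5.40 ± 0.27 (SD, n = 4 each), a difference of -0.68 (SE 0.13, 95% interval -0.95 to -0.41), which puts the exon 1 line at 62.4% of the exon 2 line. The two-sided exact permutation test of 4 arrays against 4 gave p = 0.0286, the smallest this design allows, or 0.114 after Benjamini-Hochberg adjustment over the 4 genes tested in this way, and limma's p adjusted over all probe sets was 0.381. When exon 2 replicate 4 was left out the difference was -0.80 and limma's adjusted p was 0.0318, so that HYPK was then called, at 57.4% of the exon 2 line. Fitted on the HYPK lines only, again without that array, the call was lost (limma adjusted p = 0.446).

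AT3G06600, which has no name in the files or in the reference table, gave the difference with the smallest p. It stood at 1.95, 1.56, 1.55 and 1.88 in exon 1 replicates 1 to 4, against 3.68, 3.86, 4.09 and 3.25 in exon 2 replicates 1 to 4. The groups were separated by more than 1 on the log2 scale. The amiNAA10 arrays read 1.77, 1.86, 1.83 and 1.56 and the WT arrays 1.74, 1.81, 1.85 and 1.71. It was thus the exon 2 line that stood above every other array of the series, while the exon 1 arrays, at 1.55 to 1.95, spanned the range of the amiNAA10 and WT arrays, at 1.56 to 1.86. The difference was -1.98 (SE 0.15, 95% interval -2.31 to -1.66; limma adjusted p = 1.23e-05), a level 3.95-fold lower in the exon 1 line. The exon 1 mean of 1.74 lies under the level of 1.83, where an array separates levels poorly, and the table holds no detection call, so the fold change at this locus may be understated.

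AIF2 (AT3G06590), which encodes a basic helix-loop-helix factor that restrains brassinosteroid-driven growth, lies next to AT3G06600 on the side away from HYPK. Its levels were 4.17, 4.24, 4.23 and 4.28 in exon 1 replicates 1 to 4, against 5.26, 4.96, 4.82 and 4.96 in exon 2 replicates 1 to 4. Here too the exon 2 arrays were the high ones: amiNAA10 arrays ran from 4.25 to 4.47 and WT arrays from 4.03 to 4.67. The difference was -0.77 (SE 0.13, 95% interval -1.05 to -0.49), with a limma adjusted p of 0.228. Leaving out WT replicate 4, which had the lowest WT value and enters only the estimate of the spread, gave an adjusted p of 0.0199 at the same difference.

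**Figure D1:**
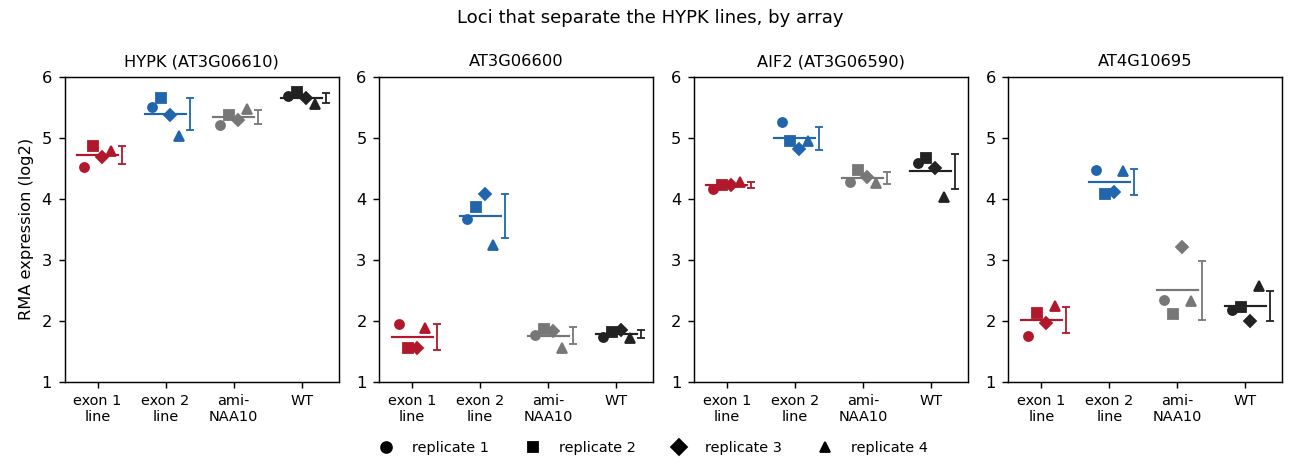
RMA expression on the log2 scale (y axis) of HYPK, AT3G06600, AIF2 and AT4G10695 in each of the 16 arrays, by genotype (x axis); each point is 1 array with its shape giving the replicate number, horizontal lines are means of 4 arrays and brackets are the mean ± SD. The exon 1 arrays of HYPK (4.53 to 4.87) sit below all others, whereas in the other panels the exon 2 arrays sit above all others.

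AIF2, AT3G06600 and HYPK follow each other in the gene order of the reference table, and all 3 had exon 1 arrays wholly below the exon 2 arrays. Over all probe sets 316 (1.14%) had this pattern and 287 (1.03%) the opposite one, 2.17% together. Of the 10 neighbours on each side of HYPK, 19 were measured and AT3G01865 was not analysed here. Of the 19, AT3G06600 was called, AIF2 was the only other one whose lines did not overlap, and the remaining 17 differed by -0.31 to 0.28 with limma adjusted p of 0.997 or more. Next to AIF2, the galactokinase gene GALK differed by -0.10 (95% interval -0.35 to 0.16). Further out on that side RWA2, which acts in the acetylation of cell wall polysaccharides, differed by -0.03 (-0.27 to 0.21). On the other side of HYPK, AT3G06620 differed by -0.31 (-0.66 to 0.03), AT3G06630 by -0.22 (-0.59 to 0.16), and ACLB-1, which encodes a subunit of the cytosolic ATP-citrate lyase, by -0.03 (-0.26 to 0.21). The separation of the lines was thus seen at 3 consecutive loci and at none of the other 17 measured neighbours.

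**Figure D2:**
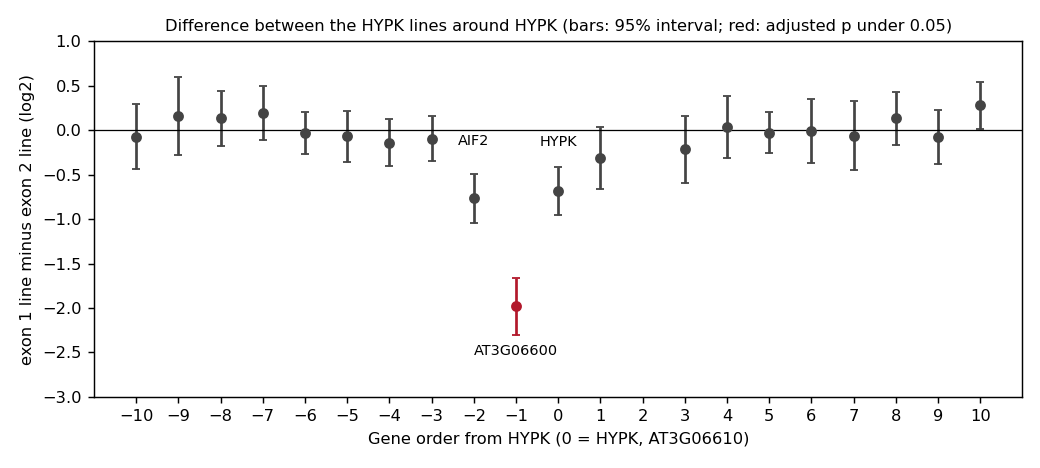
Difference between the exon 1 line and the exon 2 line on the log2 scale (y axis) for HYPK and its measured neighbours, in gene order with HYPK at 0 (x axis); points are differences, bars 95% intervals, and red marks an adjusted p under 0.05. AT3G06600 at -1.98, AIF2 at -0.77 and HYPK at -0.68 stand below the other neighbours, which lie between -0.31 and 0.28.

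AT4G10695, also without a name in the files or the reference table, was the second called locus. Exon 1 replicates 1 to 4 read 1.75, 2.12, 1.96 and 2.23, against 4.47, 4.07, 4.11 and 4.46 in exon 2 replicates 1 to 4. The exon 2 arrays were the high ones again, since amiNAA10 arrays ran from 2.11 to 3.21 and WT arrays from 1.99 to 2.58. The difference was -2.27 (SE 0.20, 95% interval -2.69 to -1.84; limma adjusted p = 5.43e-05), a level 4.81-fold lower in the exon 1 line. Exon 2 replicate 4, at 4.46, lay among the other arrays of its line at this locus. Its neighbours were looked at after this value was seen: of the 10 loci on each side, 15 were measured, and they differed by -0.16 to 0.16, with 0 called, a smallest unadjusted limma p of 0.198 and none with separated lines. The adjacent locus AT4G10690 was among those not measured. Several of the 15 lay near or under the dim level of 1.83, where differences may be understated.

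No difference between the lines was detected at the catalytic or the anchoring subunit of NatA. NAA10 (AT5G13780) read 4.67, 4.88, 4.80 and 4.99 in exon 1 replicates 1 to 4, against 5.06, 5.0, 5.05 and 4.72 in exon 2 replicates 1 to 4, a difference of -0.12 (95% interval -0.36 to 0.13; exact permutation p = 0.286). NAA15 (AT1G80410) read 8.02, 8.14, 8.12 and 8.05 in exon 1 replicates 1 to 4, against 8.20, 8.06, 8.17 and 8.12 in exon 2 replicates 1 to 4, a difference of -0.05 (-0.27 to 0.16; exact permutation p = 0.2). With all arrays the lines overlapped at both genes, at NAA10 through exon 2 replicate 4 alone. Without that array NAA10 was lower in all exon 1 arrays, by -0.20 (-0.44 to 0.05, exact permutation p = 0.0571), and NAA15 still overlapped. The nearest NAA10 values of the lines were then 4.994 and 4.995, and 4.22% of all probe sets were separated in this direction. NAA50 (AT5G11340), the catalytic subunit of a second acetyltransferase that sits on the same complex, differed by 0.06 (-0.21 to 0.33; exact permutation p = 0.371). Of the 10 N-terminal acetyltransferase genes listed, HYPK among them, 0 were called by limma, 4 had a positive and 6 a negative difference, and the median was -0.04, or -0.02 without exon 2 replicate 4. NAA40 (AT1G18335), which acetylates histones, had the second smallest p of the list at -0.29 (-0.66 to 0.08).

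Beyond these loci the lines could be told apart only coarsely. The median size of a difference was 0.11, and the median half-width of its 95% interval 0.32. The interval lay inside 2-fold in both directions for 26870 probe sets (96.6%) and inside 1.5-fold for 21439 (77.0%). A measured difference of 2-fold or more was seen in 37 probe sets, 22 higher and 15 lower in the exon 1 line, and 2 of these were called. The third smallest adjusted p over all probe sets was 0.228, that of AIF2. Without exon 2 replicate 4, limma called 0 higher (1176 at an unadjusted p under 0.05, 4.23%) and 3 lower (1387 unadjusted, 4.98%), the third being HYPK. The called share was then 0.0108%, all of it lower; the exon 1 arrays were wholly above the 3 remaining exon 2 arrays in 3.5% of probe sets and wholly below them in 4.22%, 7.72% together. In that comparison 144 probe sets differed by 2-fold or more, 104 higher and 40 lower. Leaving out exon 2 replicate 2 gave 1 higher call, DD18 (AT1G45190), at 0.85 with a limma adjusted p of 0.0427, against 0.58 with that array.

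**Figure D3:**
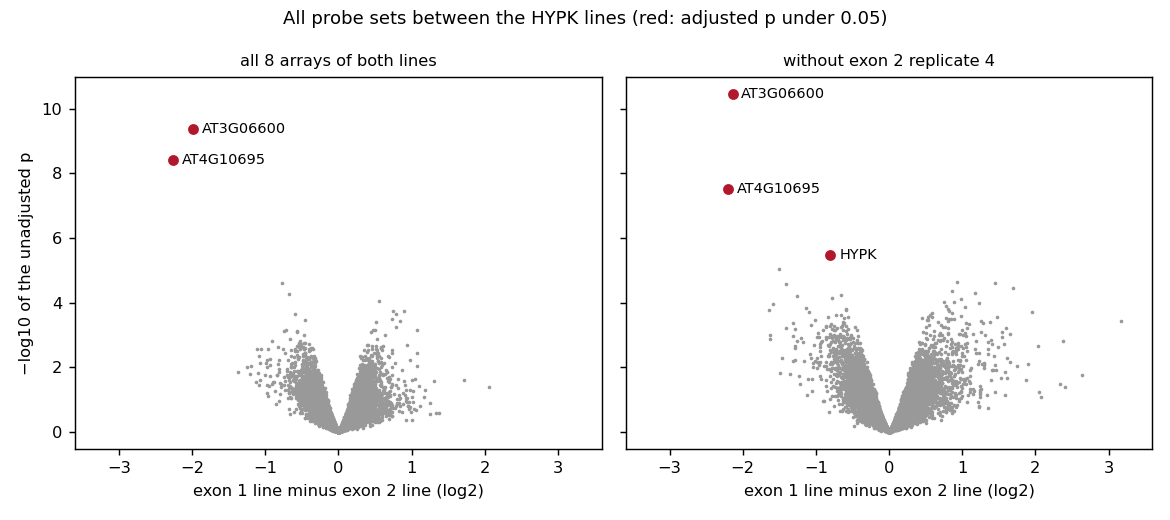
Difference between the exon 1 line and the exon 2 line on the log2 scale (x axis) against −log10 of the unadjusted limma p (y axis) for all 27826 probe sets, with all 8 arrays of both lines (left) and without exon 2 replicate 4 (right); red marks an adjusted p under 0.05. AT3G06600 and AT4G10695 stand far from the rest in both panels, and HYPK is called in the right one; the cloud is wider on the right, with 144 against 37 probe sets at 2-fold or more.

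To place the lines against leaf physiology, 434 genes in 25 lists were read out. None of the 434 was called between the lines by limma, 26 (5.99%) had an unadjusted p under 0.05, beside 4.38% of all probe sets, and the interval lay inside 2-fold for 352. The unadjusted count was 62 (14.3%) when exon 2 replicate 4 was left out, beside 9.21% of all probe sets. List medians ran from -0.31 to 0.36, and the array means of the lines overlapped in 24 of the 25 lists, the exception being the N-terminal acetyltransferase genes that hold HYPK. In that list the highest exon 1 mean (5.2725) and the lowest exon 2 mean (5.2727) all but met. Exon 2 replicate 4 lay outside the range of the other 3 exon 2 arrays in 21 of the 25 lists. Any 1 array of 4 is often the highest or the lowest, and the lists are not independent. The other arrays were not counted in this way, so this count is a description. In whole leaves, fewer cells of a type and less RNA per cell cannot be told apart.

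Salicylic acid defence genes varied more within each line than between them. Their mean over 33 genes was 5.12, 6.55, 6.70 and 5.15 in exon 1 replicates 1 to 4, against 5.15, 5.13, 5.17 and 6.91 in exon 2 replicates 1 to 4. Exon 1 replicates 2 and 3 and exon 2 replicate 4 were the high arrays, and the other 5 lay within 5.12 to 5.17. The WT arrays ran from 3.95 to 4.27 and the amiNAA10 arrays from 5.52 to 6.64, so every array of both HYPK lines was above every WT array. With all arrays the median difference was 0.17, 28 of the 33 members were positive and 1 had an unadjusted limma p under 0.05, beside 4.38% of all probe sets. Leaving out exon 2 replicate 4 gave a median of 0.52, and 10 members then had such a p, all higher, beside 4.23% of all probe sets, with 0 called. That replicate was above the mean of the other exon 2 arrays for 33 of 33 members, by a median of 1.43.

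PR1, the classical marker of salicylic acid defence, read 8.08, 9.10, 8.87 and 5.68 in exon 1 replicates 1 to 4, against 5.83, 3.41, 5.06 and 9.21 in exon 2 replicates 1 to 4. WT arrays ran from 1.84 to 3.12. The lines overlapped because of exon 1 replicate 4 and exon 2 replicate 4, and the difference was 2.05 (SE 0.92, 95% interval 0.11 to 4.00; limma adjusted p = 0.997). Leaving out exon 2 replicate 4 gave 3.17 (limma adjusted p = 0.202). ALD1, which makes the precursor of the systemic resistance signal pipecolic acid, read 4.44, 8.18, 7.56 and 3.38 in exon 1 replicates 1 to 4, against 2.91, 3.43, 3.43 and 8.29 in exon 2 replicates 1 to 4, a difference of 1.37 (-1.11 to 3.86), or 2.63 (0.52 to 4.74) without exon 2 replicate 4. PR1 and ALD1 are also among the 10 genes picked below for the largest excess of exon 2 replicate 4. Leaving that array out therefore raises their differences by the way they were picked, and those values are a description. The same 3 arrays were high for ALD1 as for the list mean. NPR4, a salicylic acid receptor, differed by 0.27 (-0.20 to 0.74), or by 0.47 without that array.

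Genes of the unfolded protein response, which raise the folding capacity of the endoplasmic reticulum, were high in the same arrays. The mean over 18 genes was 5.82, 7.08, 7.26 and 6.13 in exon 1 replicates 1 to 4, against 6.18, 6.04, 5.83 and 7.35 in exon 2 replicates 1 to 4. WT arrays lay between 5.22 and 5.36. The median difference was 0.19, with 17 of 18 members positive and 0 with an unadjusted limma p under 0.05. Leaving out exon 2 replicate 4 gave a median of 0.55, with 18 of 18 positive and 3 with such a p, beside 4.23% of all probe sets in this direction. BIP1, a luminal chaperone, differed by 0.39 (-0.47 to 1.25), CRT3, a calreticulin, by 0.25 (-0.32 to 0.82), and SHD, the luminal HSP90, by 0.32 (-0.40 to 1.05); without that array the differences were 0.76, 0.57 and 0.70 in the same order.

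Senescence, proteasome and autophagy genes had small positive medians, which were larger without exon 2 replicate 4. The mean over 13 senescence genes was 6.11, 6.51, 6.33 and 5.68 in exon 1 replicates 1 to 4, against 5.70, 5.73, 5.96 and 6.49 in exon 2 replicates 1 to 4, with WT arrays from 4.89 to 5.26. Exon 1 replicate 4 was the low exon 1 array and exon 2 replicate 4 the high exon 2 array. The median difference was 0.15, with 0 members at an unadjusted limma p under 0.05. Without exon 2 replicate 4 the median was 0.29, with 4 at such a p, all higher, beside 4.23% of all probe sets. PPH, which removes the phytol tail of chlorophyll breakdown products, differed by 0.36 (-0.03 to 0.75). The 30 proteasome genes had a median of 0.02, all 30 intervals inside 2-fold and 0 with an unadjusted limma p under 0.05, and without that array 0.12, with 2 at such a p. The 15 autophagy genes had a median of 0.07 with 1 at such a p, and without that array 0.20 with 3. All such members of both lists were higher, beside 1.96% of all probe sets with all arrays and 4.23% without that array. Among the autophagy genes ATG2, which acts in membrane expansion of the autophagosome, read 6.70, 7.02, 7.03 and 6.99 in exon 1 replicates 1 to 4, against 6.09, 6.20, 6.66 and 7.04 in exon 2 replicates 1 to 4 (difference 0.44, 95% interval 0.07 to 0.81; limma adjusted p = 0.997). Its lines overlapped through exon 2 replicate 4 alone, and without it ATG2 differed by 0.62.

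**Figure D4:**
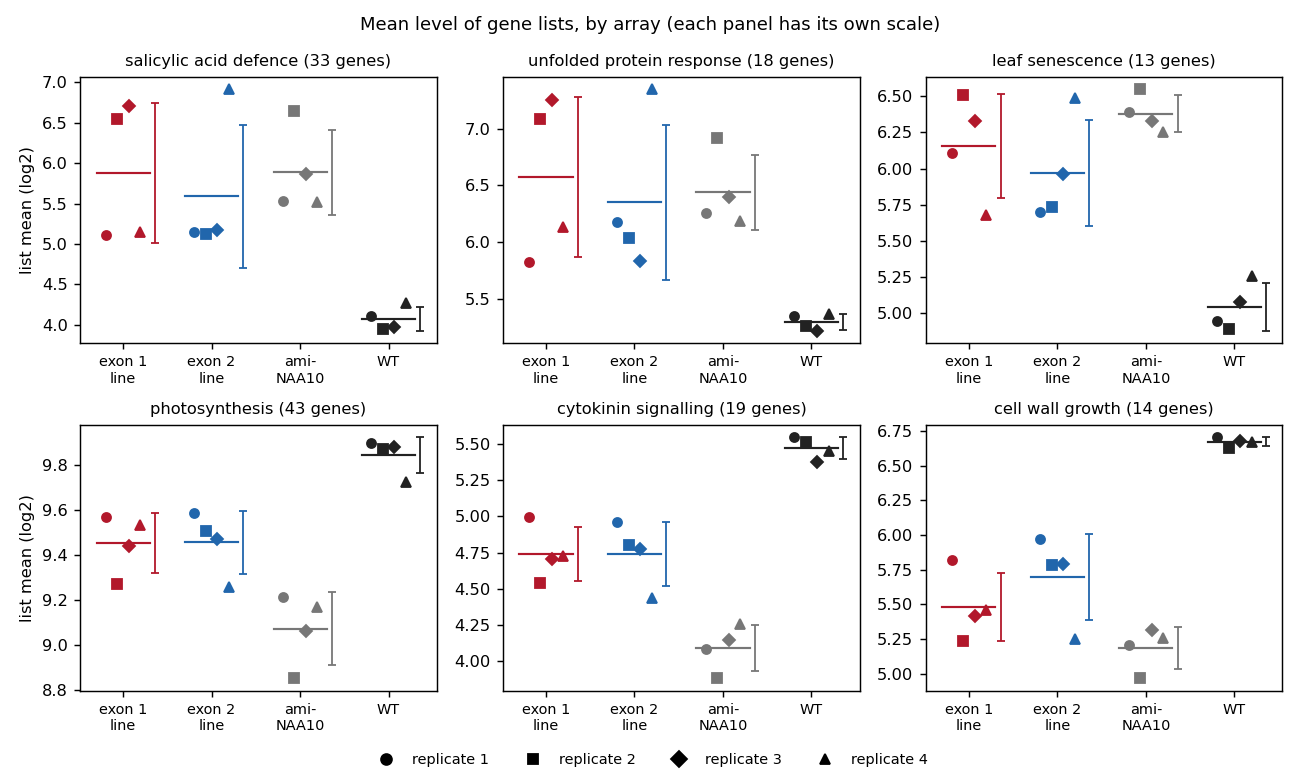
Mean log2 expression of 6 gene lists (y axis, a scale of its own in each panel) in each of the 16 arrays, by genotype (x axis); points are arrays with shapes for the replicate number, horizontal lines are means of 4 arrays and brackets the mean ± SD. For salicylic acid defence and the unfolded protein response exon 2 replicate 4 (6.91 and 7.35) lies with exon 1 replicates 2 and 3 and above the other exon 2 arrays.

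Photosynthesis genes gave the narrowest bounds. The mean over 43 nuclear genes of the photosystems and carbon fixation was 9.57, 9.27, 9.44 and 9.53 in exon 1 replicates 1 to 4, against 9.58, 9.50, 9.47 and 9.26 in exon 2 replicates 1 to 4. Differences of single members ran from -0.16 to 0.14 with a median of 0.01, 22 were positive and 21 negative, and all 43 intervals lay inside 2-fold. Without exon 2 replicate 4 the median was -0.06, with 16 positive and 27 negative. PSBR, a photosystem II protein, had the smallest p of the list at 0.14 (-0.08 to 0.36). The lowest array of each line, exon 1 replicate 2 and exon 2 replicate 4, was among the 3 with a high defence mean.

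Jasmonate genes had a positive median of 0.31, with 22 of 27 members positive and 0 with an unadjusted limma p under 0.05, and a median of 0.20 without exon 2 replicate 4. The list mean was 5.60, 6.56, 6.24 and 6.52 in exon 1 replicates 1 to 4, against 5.27, 6.49, 6.27 and 5.59 in exon 2 replicates 1 to 4. Replicate 1 was the lowest array of both lines, and exon 2 replicate 4 was also low. AOC1, an allene oxide cyclase of jasmonate synthesis, read 4.83, 6.01, 5.98 and 6.64 in exon 1 replicates 1 to 4, against 3.69, 5.95, 5.39 and 3.67 in exon 2 replicates 1 to 4 (difference 1.19, 95% interval -0.01 to 2.38). LOX3, a lipoxygenase of the same pathway, differed by 0.98 (-0.01 to 1.98), and the repressor gene JAZ2 by 0.64 (-0.03 to 1.32).

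With all arrays the flavonoid and anthocyanin list held more members with an unadjusted limma p under 0.05 than any other list, whereas without exon 2 replicate 4 the salicylic acid defence list did, with 10 against 8. Of its 15 genes 12 had a negative difference, 6 had such a p, all lower in the exon 1 line, beside 2.43% of all probe sets, and the median was -0.31, beside a median of -0.0013 over all probe sets. The number was 8, beside 4.98% of all probe sets, and the median -0.35 without exon 2 replicate 4, again with 0 called. The list mean was 2.91, 2.77, 2.72 and 2.82 in exon 1 replicates 1 to 4, against 3.51, 3.29, 2.87 and 2.80 in exon 2 replicates 1 to 4. Exon 2 replicates 1 and 2 were the high arrays, replicates 3 and 4 of that line overlapped the exon 1 line, and WT arrays ran from 3.64 to 4.29. F3H, flavanone 3-hydroxylase, read 6.47, 5.94, 6.08 and 6.04 in exon 1 replicates 1 to 4, against 7.05, 6.76, 6.46 and 6.02 in exon 2 replicates 1 to 4 (difference -0.44, 95% interval -0.82 to -0.06; limma adjusted p = 0.997). UGT75C1, an anthocyanin glucosyltransferase, was the list's 1 member with separated lines (1.14% of all probe sets were separated in this direction), at 2.49 to 2.82 in the exon 1 line and 2.86 to 3.10 in the exon 2 line (difference -0.31). 4CL3, the 4-coumarate ligase of the flavonoid branch, differed by -0.89 (-1.68 to -0.11).

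Genes of sulphur supply and of cell wall growth each held a few members with a small p. Of 12 sulphur genes 3 had an unadjusted limma p under 0.05 and a negative difference, beside 2.43% of all probe sets. Another 1 had such a p and a positive difference, beside 1.96% of all probe sets. The median was -0.07, or -0.17 without exon 2 replicate 4. LSU1, a gene induced by low sulphur, read 1.83, 1.82, 1.37 and 1.63 in exon 1 replicates 1 to 4, against 2.54, 2.08, 2.14 and 1.98 in exon 2 replicates 1 to 4 (difference -0.52, 95% interval -0.92 to -0.13; limma adjusted p = 0.997). The lines did not overlap at LSU1, which is at the dim end of the array, beside 1.14% of all probe sets separated in this direction. APR3 and APR2, which reduce activated sulphate, differed by -0.66 and -0.50, with overlapping lines, at APR3 through exon 2 replicate 4 alone. Of 14 cell wall growth genes 11 were negative and the median was -0.19. An unadjusted limma p under 0.05 was seen at 2 expansins, beside 2.43% of all probe sets in this direction: EXPA11 (-0.61, 95% interval -1.14 to -0.08) and EXPA3 (-0.49, -0.95 to -0.03). Without exon 2 replicate 4 the median was -0.39 and all 14 were negative, since that array was below the mean of the other exon 2 arrays for 14 of 14.

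Among the stress and hormone lists, the rapid stress and handling genes had a median of -0.28, with 14 of 17 negative. Without exon 2 replicate 4 the median was -0.32, with 12 of 17 negative. ERF104, an ethylene response factor, read 4.44, 4.38, 4.50 and 3.98 in exon 1 replicates 1 to 4, against 5.29, 6.53, 4.76 and 4.60 in exon 2 replicates 1 to 4 (difference -0.97, 95% interval -1.63 to -0.32; limma adjusted p = 0.997). The lines were separated, beside 1.14% of all probe sets in this direction. Exon 2 replicate 2 was the highest array by more than 1, and without that array ERF104 differed by -0.56. STZ, a zinc finger repressor induced by many stresses, differed by -1.07 (-1.99 to -0.15), and exon 2 replicate 2 was again its highest array, at 8.59. Without exon 2 replicate 2 STZ differed by -0.62. The 29 abscisic acid and drought genes had a median of -0.11, the 14 hypoxia genes -0.05 and the 23 heat shock and cytosolic chaperone genes -0.09; without exon 2 replicate 4 the values were -0.07 for the first list, -0.02 for hypoxia and -0.09 for heat shock. CBF1, a cold response factor, was separated between the lines at 1.03 to 1.22 in the exon 1 line and 1.24 to 1.37 in the exon 2 line. It is at the dim end of the array, with a limma adjusted p of 0.997, beside the same 1.14% of all probe sets.

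Cytokinin signalling genes had a median of 0.08 with all arrays and of -0.14 without exon 2 replicate 4, so the sign rested on that array. AHP1, a phosphotransfer protein of the cytokinin relay, was the 1 member with separated lines, beside 1.03% of all probe sets in this direction. It read 3.37, 3.07, 3.21 and 3.06 in exon 1 replicates 1 to 4, against 2.70, 2.45, 2.83 and 2.96 in exon 2 replicates 1 to 4 (difference 0.44, 95% interval 0.14 to 0.74, limma adjusted p = 0.997). The receptor gene AHK4 differed by -0.21 (-0.50 to 0.08), or by -0.35 without exon 2 replicate 4. Core clock genes had a median of -0.05, or -0.10 without that array, and PRR9 and RVE1, both expressed early in the day, differed by -0.70 (-1.26 to -0.14) and -0.69 (-1.26 to -0.13). For both, exon 2 replicates 1 and 2 were the high arrays and exon 1 replicate 1 stood above the other exon 1 arrays. Without exon 2 replicate 4 the differences were -0.97 for PRR9 and -0.95 for RVE1. The harvest time of each sample is not given, and its part in these values was not tested.

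Glucosinolate genes, which make sulphur-containing defence compounds, had medians of 0.09 over 15 aliphatic and 0.36 over 15 indole glucosinolate and camalexin genes, with 0 members of either at an unadjusted limma p under 0.05. Leaving out exon 2 replicate 4 gave 0.0072 for the aliphatic list, with 2 members at such a p, both lower, beside 4.98% of all probe sets. For the indole list it gave 0.20, with 0 at such a p. CYP83B1, which commits to indole glucosinolates, read 8.86, 9.62, 9.50 and 9.34 in exon 1 replicates 1 to 4, against 8.32, 9.18, 9.23 and 9.16 in exon 2 replicates 1 to 4. Replicate 1 was the lowest array of both lines. MYB28, the main regulator of the aliphatic branch, differed by -0.32 (-0.66 to 0.02).

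The markers of leaf cell types differed little in their medians: -0.06 over 12 vascular, -0.13 over 9 guard cell and myrosin cell, -0.05 over 7 epidermis and 0.03 over 9 dividing cell genes, and without exon 2 replicate 4 -0.11 for vascular, -0.17 for guard and myrosin cell, -0.05 for epidermis and 0.05 for dividing cell genes. With all arrays an unadjusted limma p under 0.05 was seen at 2 guard and myrosin cell, 1 vascular, 1 epidermis and 0 dividing cell genes. All of these were lower in the exon 1 line, beside 2.43% of all probe sets. Vascular markers averaged 4.2 to 4.57 in the exon 1 arrays and 4.39 to 4.70 in the exon 2 arrays, and guard and myrosin cell markers 5.27 to 5.52 in the exon 1 arrays and 5.47 to 5.67 in the exon 2 arrays. Dividing cell markers averaged 1.89 to 2.14 in the arrays of both lines, near the dim level of 1.83. CER1, which acts in the making of wax alkanes in the epidermis, differed by -0.98 (-1.88 to -0.08), with exon 1 replicates 2 and 3 at 3.43 and 3.44 and exon 2 replicate 4 at 4.29, and all other arrays of the lines between 4.89 and 5.67. The low CER1 arrays are the ones with high defence means. Of the 7 epidermis genes 3 had a positive and 4 a negative difference. GL1 and CUT1 went the other way from CER1, by 0.27 to 0.39 and by 0.16 to 0.30 over the 23 refits with other settings or arrays left out. The part of cell composition in the values above was not tested.

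**Figure D5:**
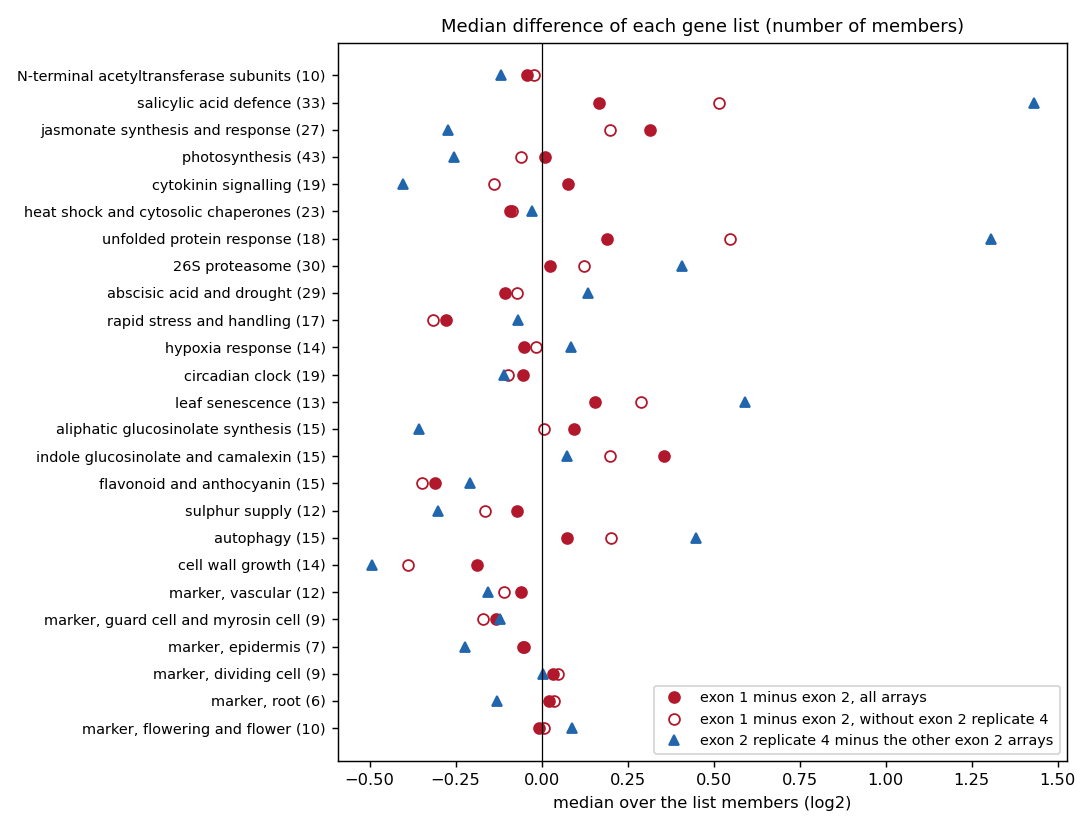
Median over the members of each of the 25 gene lists on the log2 scale (x axis; number of members in brackets): filled circles are the exon 1 line minus the exon 2 line with all arrays, open circles the same without exon 2 replicate 4, and triangles exon 2 replicate 4 minus the mean of the other 3 exon 2 arrays. The filled circles lie between -0.31 and 0.36, while the triangles reach 1.43 for salicylic acid defence and 1.31 for the unfolded protein response.

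The genes that set exon 2 replicate 4 apart were picked for that difference, so their values are a description. The 10 largest excesses over the mean of the other 3 exon 2 arrays were those of ALD1 (5.03), PR1 (4.44), the transporter gene ABCG40 (4.34), the glycosyltransferase gene UGT76B1 (4.28), ARD3 (4.27), FMO1 (3.69), XTH10 (3.67), WRKY38 (3.62), AIG1 (3.44) and CRK37 (3.25). Several of them act in salicylic acid and pipecolic acid defence, FMO1 as the enzyme that makes N-hydroxypipecolic acid. UGT76B1 read 2.22, 6.14, 6.30 and 2.48 in exon 1 replicates 1 to 4, against 2.04, 1.56, 2.04 and 6.16 in exon 2 replicates 1 to 4. ARD3 read 2.20, 6.41, 6.26 and 1.99 in exon 1 replicates 1 to 4, against 2.30, 1.77, 2.37 and 6.41 in exon 2 replicates 1 to 4. Both genes were thus near the same high level in exon 1 replicates 2 and 3 and exon 2 replicate 4 and near the same low level in the other 5 arrays, and amiNAA10 replicates 2 and 3 were high as well, at 7.51 and 5.81 for UGT76B1 and at 5.95 and 5.71 for ARD3. In WT arrays UGT76B1 ran from 1.54 to 2.0 and ARD3 from 1.71 to 2.89.

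The 10 largest deficits of exon 2 replicate 4 were those of CORI3 (-2.17), BAM5 (-2.17), TBL26 (-2.07), BT5 (-1.96), the defensin gene PDF1.2 (-1.89), the beta-glucosidase gene BGLU18 (-1.87), the cytokinin response regulator gene ARR15 (-1.86), the proline transporter gene ProT3 (-1.83), PGL5 (-1.69) and TSA1 (-1.69). BAM5, a beta-amylase, read 4.2, 5.44, 5.26 and 5.52 in exon 1 replicates 1 to 4, against 4.62, 6.53, 5.92 and 3.52 in exon 2 replicates 1 to 4. PDF1.2, a marker of jasmonate and ethylene defence, read 5.50, 7.97, 7.95 and 6.19 in exon 1 replicates 1 to 4, against 5.65, 8.10, 8.39 and 5.49 in exon 2 replicates 1 to 4. At both of these genes replicate 1 was low in both lines along with exon 2 replicate 4. At ARR15, by contrast, replicate 1 was the highest array of both lines, at 5.84 in the exon 1 line and 5.26 in the exon 2 line, so the 10 genes did not share 1 order of arrays. BT5, a BTB and TAZ domain protein gene, was the 1 of these 10 with an interval apart from 0 between the lines (-1.10, 95% interval -1.96 to -0.24, limma adjusted p = 0.997), at 5.14 to 5.42 in the exon 1 arrays and 4.86 to 7.45 in the exon 2 arrays. Without exon 2 replicate 4, for whose low value it was picked, BT5 differed by -1.59 (-2.25 to -0.93, limma adjusted p = 0.169).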

How the data were processed

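Total leaf RNA was hybridised as biotin-labelled cRNA to Affymetrix arrays, per the labels' protocols. The deposited table holds log2 expression per probe set, made by the authors with RMA, per the submitters' processing notes; the sources used here name no array design, software version or annotation. The sorted columns differed by at most 0.0019, so a shift of all RNA in 1 genotype would not be seen. Arrays have no read depth, and 4 arrays per line limit the precision.

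Groups were taken from the sample titles. All 16 arrays entered 1 limma model (limma 3.58.1, R 4.3.3) with a mean per genotype, no filter and no block, and the contrast was tested two-sided over 27826 probe sets. HYPK, NAA10, NAA15 and NAA50 also had exact permutation tests. Of the probe sets, 27241 matched a locus of a RefSeq table of TAIR10.1, used only for symbols (10556) and gene order; 585 did not. The procedure was tested on simulated data.

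The groups compared, the lists and the naming rule were chosen with earlier results of these data known. Named were the 4 genes above, all called probe sets, genes with a symbol called without exon 2 replicate 4 and with separated lines (0 were found outside the called ones and HYPK), the neighbours of HYPK, the 10 genes per direction that most set exon 2 replicate 4 apart, and up to 3 members per list by smallest p. The neighbours of AT4G10695, DD18 and the 10 loci in the closing section were named after their values were seen. Alternatives were the lines only, a replicate block, a filter on the dimmest 30%, the intensity trend with the robust option, array weights, centring and leaving out each array; fitting the lines only without exon 2 replicate 4 was added after seeing the data.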

Additional observations from a re-analysis of the deposited data

Results flagged for a closer look

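In groups of 4 arrays, an array was marked when its gap to the nearest other array, as a share of the line's range, was over Dixon's 95% critical value. Of 234 groups tested, 13 (5.56%) were marked, and chance marks about 1 in 20; the genes picked for setting exon 2 replicate 4 apart were not tested again, apart from those that other rules also name. Exon 2 replicate 4 was the highest array of its line for the mean of the salicylic acid defence list (share of the range 0.978), for ALD1 (0.903) and for AT1G05090 (0.906), and the lowest for CER1 (0.916). ALD1 was also picked for its excess in that array, so its mark, though counted among the 13, is only a description. Exon 2 replicate 1 was the lowest for CYP83B1 (0.927) and the highest for EXPA11 (0.846) and GL1 (0.862), and exon 2 replicate 2 was the highest for SUS4 (0.981) and for the mean of the vascular markers (0.838). In the exon 1 line, replicate 1 was the highest for RVE1 (0.941) and PRR9 (0.859) and the lowest for ATG2 (0.883), and replicate 2 was the highest for PPH (0.896).

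Set against WT, the lines differed from each other at AT3G06600 by -1.98 (limma adjusted p = 1.23e-05) and at AT4G10695 by -2.27 (limma adjusted p = 5.43e-05). The WT mean drops out of this difference, so these are the values already given above and not a separate test. At both loci the 4 of 4 exon 2 arrays were above all WT arrays, while the exon 1 arrays overlapped them.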

How the results depend on the processing

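AT3G06600 and AT4G10695 were called in 23 of 23 alternatives, with differences of -2.14 to -1.86 (limma adjusted p 9.81e-07 to 0.0105) and of -2.34 to -2.18 (2.53e-06 to 0.00197). Leaving out each array in turn gave 0 to 1 higher calls, the 1 being DD18 without exon 2 replicate 2, and 2 to 3 lower calls, the third being HYPK without exon 2 replicate 4 or AIF2 without WT replicate 4. The HYPK difference then ranged from -0.80 to -0.60 (adjusted p 0.0318 to 1.0); it was called only without exon 2 replicate 4 (-0.80), and in a fit of the lines only without that array its adjusted p was 0.446, with 0 higher and 2 lower calls; the cause was not tested. EXPA7 was at -0.08 with all arrays and ranged from -0.25 without exon 2 replicate 4 to 0.040 without exon 2 replicate 1. Without exon 2 replicate 4, 2563 probe sets had an unadjusted limma p under 0.05, against 1220 with it.

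Replicate numbers did not pair the arrays, apart from replicate 1. Deviations of same-numbered arrays of the lines correlated at 0.27 for replicate 1, and at -0.07, -0.20 and -0.29 for the later numbers in order. Each replicate 1 array correlated best with the replicate 1 array of the other line. No array of a later number correlated best with its own number. With the replicate block 0 probe sets were higher and 2 lower, and the adjusted p of HYPK was 0.659. Of the other values, 3176 kept their direction and side of the threshold, and 7 list values moved by more than the spread or the count limit, among them the cytokinin median. Dim loci, with means near 1.83, have differences that the array may understate, and intervals with a median half-width of 0.32 leave smaller differences undetected.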

Other observations

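The 10 loci next in order of p after HYPK, chosen here after their values were seen, had limma adjusted p of 0.490 to 0.997 and lines that did not overlap. Choosing by small p favours separated lines, which 2.17% of all probe sets had, so this is a description. The exon 1 line was the higher one at AT5G07571 (0.56), AT1G05090 (0.74), the transporter gene UMAMIT31 (0.90), AT5G24990 (0.78), LpxB (0.73), AT5G37440 (0.84), AT1G48400 (0.51) and the histone deacetylase gene hda17 (0.78), and the lower one at XPB2 (-0.60), which encodes a DNA helicase, and AT1G48150 (-0.45). UMAMIT31 read 5.55, 5.26, 5.21 and 5.50 in exon 1 replicates 1 to 4, against 4.82, 4.40, 4.51 and 4.19 in exon 2 replicates 1 to 4, with WT arrays from 5.13 to 6.08. AT5G37440 read 3.40, 3.23, 3.08 and 3.66 in exon 1 replicates 1 to 4, against 2.21, 2.14, 2.71 and 2.93 in exon 2 replicates 1 to 4, with WT arrays from 2.12 to 2.36. At UMAMIT31 the 4 exon 2 arrays were below every WT array and the exon 1 arrays overlapped WT. At AT5G37440 the 4 exon 1 arrays were above every WT array, and so were exon 2 replicates 3 and 4.

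The first principal component of all 16 arrays held 46.4% of the variance and ran from the amiNAA10 arrays (-57.4 to -30.9) to the WT arrays (50.1 to 66.0). The exon 1 arrays lay at -0.0, -32.5, -27.2 and -5.3 and the exon 2 arrays at 15.5, 11.7, -1.9 and -44.3, so both lines spread widely along it. On this component alone, exon 1 replicate 2 and exon 2 replicate 4 lay within the range of the amiNAA10 arrays. The second component held 11.1% of the variance. There the exon 1 arrays lay at -23.6 to -15.5 and the exon 2 arrays at -24.3 to -8.3, apart from the amiNAA10 arrays at 14.1 to 39.3.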
